A study of Mus musculus with 6 samples.

Results

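Glutathione, peroxiredoxin, superoxide dismutase and NRF2 genes were followed in RNA-Seq data of mouse embryonic fibroblasts (MEFs), primary cells grown from embryos. The members are 55 of the 25043 genes in the table. They were chosen by symbol, as the genes named Gsta, Gstm, Gstp, Gstt, Gpx or Prdx with a number, together with 21 single genes of the same defence. The 2 groups were 3 libraries of wild-type (WT) MEFs and 3 of Anp32e null (Anp32e-/-) MEFs, both used below passage 8 and plated the day before RNA isolation, with no other allele or treatment named. Anp32e encodes a chaperone that removes the histone variant H2A.Z from chromatin. The cells came as a gift from another laboratory, and neither the number of embryos nor their age is given in the sources used here, so the adjusted p-values measure the spread between these libraries, which may be technical.

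The data examined are a single table of the comparison with 1 line per transcript, so each gene has a mean over all 6 libraries, a log2 fold change (log2FC, Anp32e-/- over WT) with its standard error (SE), and an adjusted p-value, but no value per library and no total count. Group means in normalized counts follow from that mean and its log2FC by calculation, and carry no error. For Anp32e itself, these were 3259 for WT and 1121 for Anp32e-/- MEFs (log2FC −1.54). Xist had 5111 normalized counts in WT and was under 3 in Anp32e-/- MEFs, while 4 Y-linked genes were under 3 in WT and between 663 and 1103 in Anp32e-/- MEFs, so genotype and sex of the embryos cannot be told apart. Of the 10 fibroblast markers, 6 were higher and 1 was lower in Anp32e-/- MEFs, the summed level was 473372 in WT and 493725 in Anp32e-/- MEFs, and Lum was under 3 in both. Of the 8 mesothelial markers, 6 were higher and 1 was lower, with a summed level of 9724 in WT and 11971 in Anp32e-/- MEFs. The lower one, Krt19, made up 9129 of the WT sum and fell to 5671 (log2FC −0.69). Wt1 and Lrrn4 were under 3 normalized counts in WT, with Upk1b at 3.47 and Upk3b at 5.04, whereas Anp32e-/- MEFs had 600.5, 217, 1835 and 1205. The part of these cells in the results below was not tested.

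Cells keep glutathione, a tripeptide with a reactive thiol, as their main soluble reductant. Glutathione peroxidases use it to reduce peroxides, glutathione S-transferases couple it to reactive compounds, and glutathione reductase recycles it with NADPH. Peroxiredoxins do similar work with thioredoxin. The transcription factor NRF2 (gene Nfe2l2) switches many of these genes on when oxidants or electrophiles release it from KEAP1, through a promoter element whose core is often written TGACNNNGC.

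Members moved in both directions. Of the 51 members with an adjusted p-value, 11 rose and 11 fell in Anp32e-/- MEFs at an adjusted p under 0.05 (DESeq2 Wald test, Benjamini-Hochberg adjustment), and 29 were not called. Over all 17283 genes with an adjusted p-value, 16.8% were called higher and 14.1% lower, so that the members' shares of 21.6% in each direction were near those of all genes. The sizes differed between the directions. With an absolute log2FC over 0.5, the threshold used in the study's methods, 2 members were higher and 9 lower, that is 3.92% and 17.6% of the 51, beside 8.67% and 8.2% of all genes. The 9 were Gpx7, Gstt3, Gpx3, Sod3, Nqo1, Gstm2, Slc7a11, Gstm5 and Cat, and the 2 were Gsta4 and Gstm1. The median log2FC was −0.09 over the 51 members and 0.00 over all genes, with 21 members above and 30 below 0, and the median absolute log2FC was 0.31 for both. These counts describe genes chosen with earlier results of these data known, and no test was made of the list. The study's methods left out genes on the X and Y chromosomes, which were kept here. Its plot of expression changes marked genes past a log2FC of 1.5.

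All 22 calls fell among the 43 members whose mean reached 10 normalized counts. Of the 14246 genes at that level, 19.8% were called higher, 16.7% lower, 9.91% higher with a log2FC over 0.5 and 9.5% lower with a log2FC under −0.5. The members' shares were 25.6%, 25.6%, 4.65% and 20.9%. In bulk RNA, fewer cells that use a gene and less of its RNA per cell cannot be told apart.

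**Figure D1:**
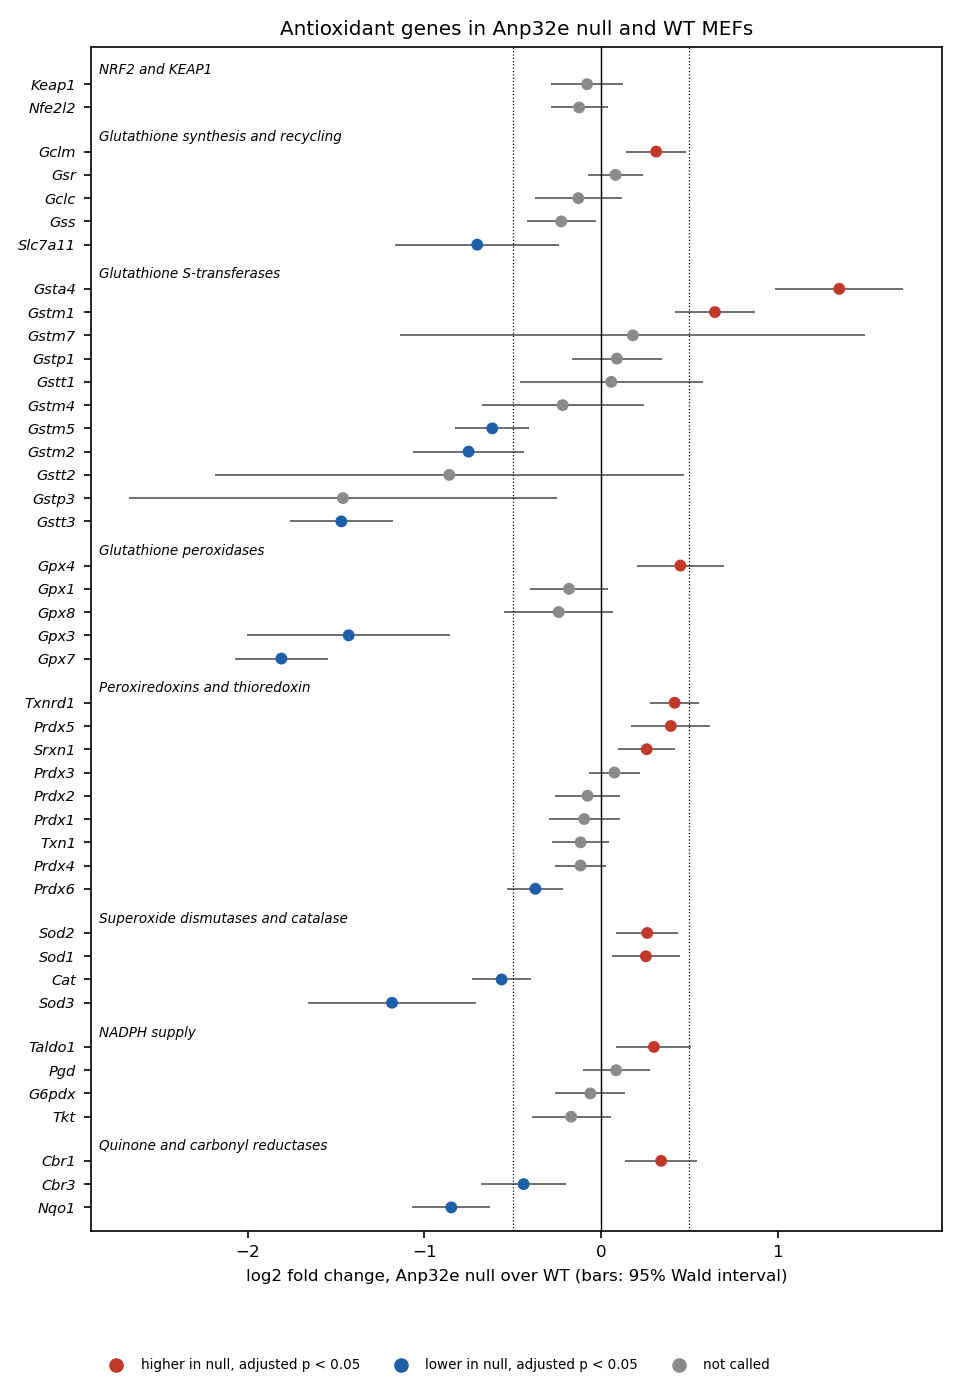
Log2FC of Anp32e-/- over WT MEFs (x axis) for the 43 members whose mean reached 10 normalized counts, grouped by role. Points are the fitted values, bars the 95% Wald intervals, dotted lines mark −0.5 and 0.5, and colour marks an adjusted p under 0.05. The 9 genes past −0.5 reach −1.81 (Gpx7), and the 2 past 0.5 reach 1.35 (Gsta4).

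The regulators of the response were not called. Nfe2l2, which encodes NRF2, had 4694 normalized counts on average in WT and 4309 in Anp32e-/- MEFs. Its log2FC was −0.12, with a 95% interval from −0.28 to 0.04 (adjusted p = 0.259). Keap1, whose protein holds NRF2 for degradation, had 2947 and 2792, a log2FC of −0.08 and an interval from −0.28 to 0.13. Both intervals lie inside 0.5 in each direction. The table measures RNA only, and NRF2 is largely controlled as a protein.

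Promoters in the mouse RefSeq table (GRCm38.p6) were matched to 47 members and read over the 250 bases before the annotated start. The letters TGACNNNGC stood on either strand in 9 of the 47 (19.1%) and in 11.5% of all 27025 genes with a promoter there. A related spelling, TGAGNNNGC, was added after the promoters had been seen, and stood in 9 of 47 (19.1%) and in 16.3% of all genes. The spellings differ in the fourth letter, so they cannot match at the same position of a strand. At least 1 of them stood in 17 of 47 members (36.2%) and 25.7% of all genes. With both spellings pooled, 5 of the 10 members that rose and had a promoter held a match (Gclm, Srxn1, Txnrd1, Sod1 and Taldo1). Of those that fell, 2 of 9 did (Slc7a11 and Gstm5), and of those not called 10 of 25. Srxn1, Taldo1 and Slc7a11 held only the spelling added later. TGACNNNGC stood in Gclm, Txnrd1 and Sod1, which rose, in Gstm5, which fell, and in the uncalled G6pdx, Gsta3, Gstm7, Nfe2l2 and Prdx1. No test was made of this split. A match is a stretch of letters and not a bound site.

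The stretches below show these letters, in capitals, in genes that rose, fell and were not called. Gclm, Txnrd1 and Gstm5 were taken by the spelling TGACNNNGC and a call, and Sod1, which also met this rule, is not shown. Srxn1, Slc7a11 and the uncalled Prdx1 were chosen after their values had been seen, the first 2 for the added spelling. Each is written 5′ to 3′ on the strand of the gene and ends before any base in the window that GENCODE gives to an exon of that gene, or before the RefSeq gene span where that begins in the window. In Slc7a11 and Txnrd1 the RefSeq span begins further upstream than the start used here, so these stretches lie inside the annotated gene.
Gclm, chr3:122245307-122245486, plus strand: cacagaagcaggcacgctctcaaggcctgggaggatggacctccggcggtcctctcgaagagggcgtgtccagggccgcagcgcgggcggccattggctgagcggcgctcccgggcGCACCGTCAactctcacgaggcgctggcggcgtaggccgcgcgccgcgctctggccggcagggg
Txnrd1, chr10:82858956-82859178, plus strand: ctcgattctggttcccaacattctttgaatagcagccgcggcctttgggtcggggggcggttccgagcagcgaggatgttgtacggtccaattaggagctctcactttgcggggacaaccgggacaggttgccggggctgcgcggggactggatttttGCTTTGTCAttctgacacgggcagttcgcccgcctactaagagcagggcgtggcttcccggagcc
Gstm5, chr3:107895604-107895820, plus strand: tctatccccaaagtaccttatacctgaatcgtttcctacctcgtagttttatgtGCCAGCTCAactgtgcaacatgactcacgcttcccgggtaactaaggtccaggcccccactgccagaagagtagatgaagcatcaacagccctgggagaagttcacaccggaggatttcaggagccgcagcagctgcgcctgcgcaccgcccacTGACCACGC
Srxn1, chr2:152105274-152105515, plus strand: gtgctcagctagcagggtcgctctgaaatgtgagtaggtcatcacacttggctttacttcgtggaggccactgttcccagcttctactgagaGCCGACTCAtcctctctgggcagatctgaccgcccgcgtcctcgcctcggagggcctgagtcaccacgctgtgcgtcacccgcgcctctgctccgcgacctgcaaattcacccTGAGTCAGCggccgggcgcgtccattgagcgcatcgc
Slc7a11, chr3:50443615-50443863, minus strand: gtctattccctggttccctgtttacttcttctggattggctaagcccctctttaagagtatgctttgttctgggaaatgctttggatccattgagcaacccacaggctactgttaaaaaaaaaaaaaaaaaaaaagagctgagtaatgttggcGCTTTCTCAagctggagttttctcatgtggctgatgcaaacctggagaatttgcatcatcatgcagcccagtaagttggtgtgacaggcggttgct
Prdx1, chr4:116685349-116685543, plus strand: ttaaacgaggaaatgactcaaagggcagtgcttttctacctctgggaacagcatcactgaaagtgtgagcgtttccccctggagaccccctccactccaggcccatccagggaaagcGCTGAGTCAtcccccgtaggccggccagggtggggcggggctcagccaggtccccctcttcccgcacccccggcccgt
The matches nearest the start began 134 bases before it in Gclm, 92 in Txnrd1, 42 in Gstm5, 45 in Srxn1, 97 in Slc7a11 and 133 in Prdx1. Gclm, Txnrd1, Prdx1 and Gstm5 thus carried the same core within the window with log2FC values of 0.31, 0.42, −0.09 and −0.61, and Slc7a11 and Srxn1 the added spelling with −0.70 and 0.26. Nqo1, the usual reporter of NRF2 activity, held neither spelling in this window.

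Glutathione synthesis and recycling had 1 member up and 1 down of 5. Slc7a11, the transporter that brings in cystine as the source of cysteine, lies on chromosome 3 (GRCm38.p6, 50364936 to 50499087). From WT to Anp32e-/- MEFs it fell from 260.8 to 160.5 normalized counts (log2FC −0.70, SE 0.237, adjusted p = 0.0125). Gclm, the modifier subunit of the enzyme that makes the first bond of glutathione (chromosome 3, 122245487 to 122267215), rose from 2741 to 3404, a log2FC of 0.31 (adjusted p = 0.00173). Gclc, the catalytic subunit of the same enzyme, was at 1820 and 1666 normalized counts, with a log2FC of −0.13 and an interval from −0.37 to 0.12. The intervals of the 2 subunits do not overlap, and the difference between them was not tested. With the median of each gene's chromosome taken out, Gclm was at 0.35 and still called, and Gclc turned to 0.09 and was not. Their intervals, shifted by the same medians, then overlapped. Gss, glutathione synthetase, had 4156 and 3557 (log2FC −0.22, adjusted p = 0.0718). Gsr, which recycles oxidised glutathione, had 5324 and 5637 (log2FC 0.08, interval −0.08 to 0.24).

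Glutathione S-transferases, which attach glutathione to electrophiles, gave both members with a rise past 0.5. Among the 18, 2 rose, 3 fell and 13 were not called, and 11 had a mean of at least 10. Gsta4, an alpha class enzyme with a preference for the lipid aldehyde 4-hydroxynonenal, lies on chromosome 9 (78191966 to 78209349). Its group means were 170.6 for WT and 434.4 for Anp32e-/- MEFs, 2.55-fold higher (log2FC 1.35, SE 0.185, adjusted p = 7.62e-12). The other alpha class genes were scarcely counted, with means over both groups of 2.67 for Gsta1, 1.08 for Gsta2 and 8.45 for Gsta3.

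The 7 mu class genes lie side by side over 149 kb of chromosome 3 (107895854 to 108045179) and did not move together. Gstm1 rose from 2027 to 3169 normalized counts (log2FC 0.65, SE 0.114, adjusted p = 2.27e-07). Gstm2, whose end lies 25.8 kb from Gstm1, fell from 625.3 to 372 (log2FC −0.75, SE 0.16, adjusted p = 2.30e-05). Gstm5, at the other side of the cluster, fell from 1767 to 1154 (log2FC −0.61, SE 0.107, adjusted p = 1.27e-07). The 95% interval of Gstm1 runs from 0.42 to 0.87, and those of Gstm2 and Gstm5 end at −0.44 and −0.40. Per kilobase of transcript, the computed WT level was 1572 normalized counts for Gstm1 and 1870 for Gstm5, and the Anp32e-/- level 2459 and 1221, so their order turned between the groups. Gstm4, next to Gstm1 on its far side, had 97.5 and 83.9 normalized counts (log2FC −0.22), and Gstm7 had 13.1 and 14.9 (log2FC 0.18). Gstm3 and Gstm6 had means of 2.02 and 3.80.

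Similar genes may exchange reads in these families. The study's reads were paired and longer than the 75-base stretches compared here. A shared stretch therefore does not by itself make a read ambiguous, and the shares can overstate an exchange. Of all 75-base stretches in the Gstm1 transcript, 14.8% also occur in other genes, chiefly the pseudogene Gstm2-ps1. The share was 3.13% in Gstm2 and 0 in Gstm5 and Gsta4. An antisense transcript, 4933431E20Rik, covers 13.9% of the exon bases of Gstm5. It was lower in Anp32e-/- MEFs as well (mean 288.1, log2FC −0.55, adjusted p = 0.00233). Whether strand was used in counting is not given in the sources used here, and an exchange of reads between them was not tested.

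The theta class lies within 63.3 kb of chromosome 10 (75774117 to 75837419). Gstt3 fell from 548.3 to 198 normalized counts, 2.77-fold lower (log2FC −1.47, SE 0.148, adjusted p = 1.47e-21). Gstt1, which lies 2.39 kb from Gstt3, had 117.6 and 122.5 normalized counts, a log2FC of 0.06 and an interval from −0.46 to 0.58. Gstt2 had 13.9 and 7.65 (log2FC −0.86, adjusted p = 0.358), and the mean of Gstt4 was 1.54. Part of Gstt3's exon bases, 13.6%, is shared on the same strand with the gene model Gm20441.

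Of the pi class on chromosome 19, Gstp1 had the highest level per length among the 18 transferases followed here, at 3572 normalized counts per kb over both groups. Its group means were 2841 for WT and 3024 for Anp32e-/- MEFs (log2FC 0.09, interval −0.16 to 0.34). Of its 75-base stretches, 57.7% also occur in Gstp2, listed with a mean of 4.05, so reads of these 2 may not all be separated. Gstp3 had 26.3 and 9.56 normalized counts, and its log2FC of −1.46 missed the threshold (adjusted p = 0.0546).

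**Figure D2:**
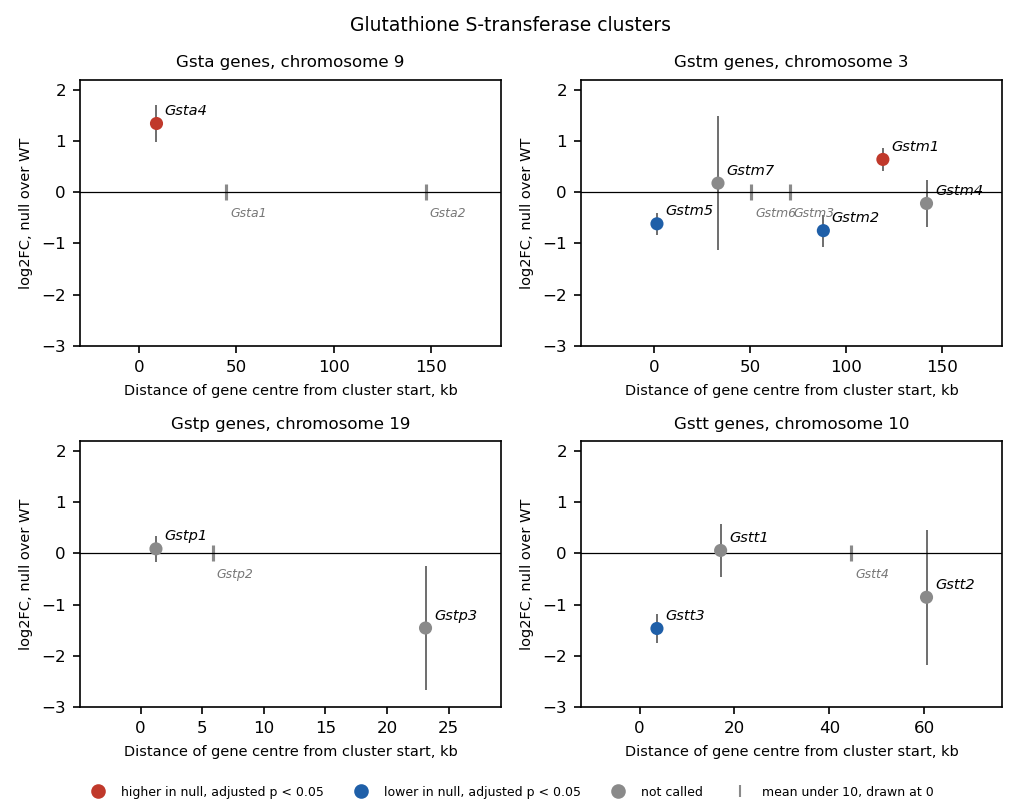
Log2FC of Anp32e-/- over WT (y axis, bars are 95% Wald intervals) against the distance of each gene's centre from the start of its cluster in kb (x axis), for the alpha, mu, pi and theta glutathione S-transferase clusters. Genes with a mean under 10 are marked at 0 with no value. In the mu cluster Gstm1 is at 0.65 between Gstm2 at −0.75 and the uncalled Gstm4, and in the theta cluster Gstt3 at −1.47 stands beside Gstt1 at 0.06.

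Glutathione peroxidases gave the largest fall of any member with a mean of at least 10. Gpx7, an enzyme of the endoplasmic reticulum that takes part in oxidative protein folding, lies on chromosome 4 (108400217 to 108406713). From WT to Anp32e-/- MEFs it fell from 885 to 252.6 normalized counts, 3.50-fold lower (log2FC −1.81, SE 0.134, adjusted p = 1.89e-39). Gpx8, a glutathione peroxidase of the same compartment, had 5814 and 4927 normalized counts and was not called (log2FC −0.24, interval −0.55 to 0.07). The intervals of the 2 do not overlap. Gpx3, the secreted enzyme found in plasma (chromosome 11, 54902854 to 54910387), fell from 92.3 to 34.3 normalized counts (log2FC −1.43, SE 0.294, adjusted p = 1.10e-05).

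The abundant intracellular peroxidases changed less. Gpx4, which reduces lipid peroxides in membranes, rose from 30114 to 41126 normalized counts, a log2FC of 0.45 (adjusted p = 0.00197). Of its 75-base stretches, 55.3% also occur in the pseudogene Gpx4-ps2. Gpx1, the main cytosolic enzyme, had 21260 and 18754 (log2FC −0.18, interval −0.40 to 0.04). Per length, the order of Gpx4, Gpx1, Gpx8, Gpx7 and Gpx3 was the same in both groups, from 30266 to 57.9 normalized counts per kb in WT and from 41333 to 21.5 in Anp32e-/- MEFs. Gpx2, Gpx5 and Gpx6 had no reads, and the pseudogene Gpx2-ps1 had a mean of 3.39.

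**Figure D3:**
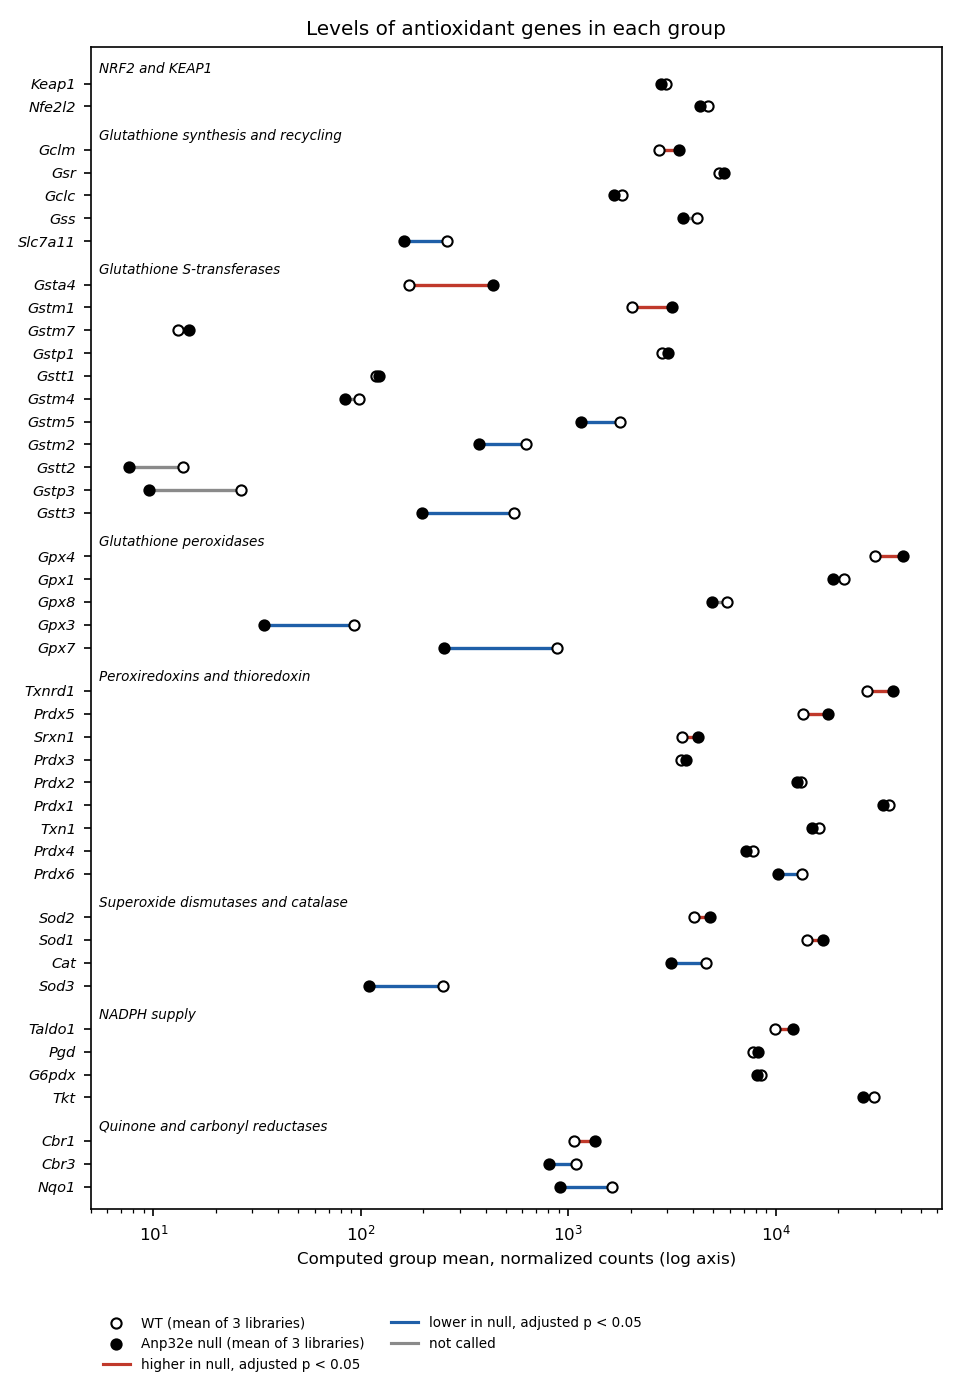
Computed group means in normalized counts (x axis, log scale) of the 43 members, with WT as open and Anp32e-/- as filled circles, and lines coloured by call. The means have no error bar because the table holds no values per library. Gpx7 moves from 885 to 252.6 and Gsta4 from 170.6 to 434.4, and the 11 genes with a mean of at least 10000 stay within a log2FC of −0.37 to 0.45.

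In the peroxiredoxin and thioredoxin group, 3 members rose, 1 fell and 5 were not called, all within 0.5. Txnrd1, the cytosolic thioredoxin reductase, rose from 27528 to 36759 normalized counts, a log2FC of 0.42 (adjusted p = 3.85e-08). Prdx5, a peroxiredoxin found in mitochondria and peroxisomes, rose from 13545 to 17815 (log2FC 0.40, adjusted p = 0.00267). Srxn1, which restores overoxidised peroxiredoxins, rose from 3523 to 4216 (log2FC 0.26, adjusted p = 0.00749). Prdx6, which uses glutathione in place of thioredoxin, fell from 13315 to 10294 (log2FC −0.37, adjusted p = 3.59e-05). Of the exon bases of Prdx5, 19.1% lie under Trmt112 on the opposite strand.

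The other peroxiredoxins and thioredoxin itself were not called, and their intervals lie within 0.5 in both directions. The log2FC was −0.09 for Prdx1, −0.08 for Prdx2, 0.08 for Prdx3, −0.12 for Prdx4 and −0.12 for Txn1. Prdx1 was at 35226 and 32986 normalized counts, Prdx2 at 13262 and 12581, Prdx3 at 3485 and 3674, Prdx4 at 7757 and 7158, and Txn1 at 16177 and 14935. Prdx6b had a mean of 0.352 and no adjusted p-value.

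Every superoxide dismutase and catalase was called, 2 up and 2 down, in a group of only 4 genes. Of all genes with a mean of at least 10, 19.8% were called higher and 16.7% lower. Sod3, the extracellular superoxide dismutase (chromosome 5, 52363804 to 52369738), fell from 248.4 to 109.5 normalized counts (log2FC −1.18, SE 0.242, adjusted p = 9.28e-06). Cat, the peroxisomal enzyme that breaks down hydrogen peroxide (chromosome 2, 103453904 to 103485153), fell from 4623 to 3131 (log2FC −0.56, SE 0.0855, adjusted p = 9.32e-10). The cytosolic Sod1 rose from 14150 to 16878 (log2FC 0.25, adjusted p = 0.0305) and the mitochondrial Sod2 from 4030 to 4833 (log2FC 0.26, adjusted p = 0.0135). With the median of their chromosomes taken out, neither rise was called (log2FC 0.05 and −0.06, adjusted p = 0.782 and 0.703), while both falls were.

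Of the 4 genes of the pentose phosphate pathway, which supplies NADPH for the recycling of glutathione and thioredoxin, only Taldo1 was called. This transaldolase gene rose from 9879 to 12160 normalized counts (log2FC 0.30, adjusted p = 0.0208). G6pdx, the X-linked first enzyme of the pathway, had 8497 and 8150 (log2FC −0.06), Pgd 7730 and 8204 (0.09) and Tkt 29601 and 26337 (−0.17), and the intervals of all 3 lie within 0.5 in both directions.

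All 3 quinone and carbonyl reductases were called, 1 up and 2 down, beside 19.8% and 16.7% of all genes with a mean of at least 10. Nqo1, which reduces quinones in a single step of 2 electrons (chromosome 8, 107388225 to 107403205), fell from 1630 to 906.3 normalized counts, 1.80-fold lower (log2FC −0.85, SE 0.113, adjusted p = 1.76e-12). The neighbours Cbr1 and Cbr3 lie 72.9 kb apart on chromosome 16. Cbr1 rose from 1060 to 1342 (log2FC 0.34, adjusted p = 0.00535) and Cbr3 fell from 1089 to 803.7 (log2FC −0.44, adjusted p = 0.00179). With the chromosome median of 0.21 taken out, Cbr1 was no longer called (log2FC 0.14, adjusted p = 0.39) and Cbr3 was.

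By mean count, not corrected for length, the changes past 0.5 lay below 10000. Of the 11 members at or above that mean, 5 rose and 1 fell, and none passed an absolute log2FC of 0.5. Their log2FC ran from −0.37 to 0.45. Of the 900 genes at that level, 7.89% passed, so none among 11 members is near the share of all genes. In the wider list described below, Fth1 (mean 38228, log2FC 0.72) and Gsto1 (20466, 0.68) passed 0.5 above that mean. Ftl1, Txndc5, Sqstm1, Msrb3, Lap3, Glrx3 and Slc3a2 of that list were also above it and did not pass. Of the 32 members with a mean from 10 to 10000, 6 rose and 10 fell, and all 11 members past 0.5 were among them.

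**Figure D4:**
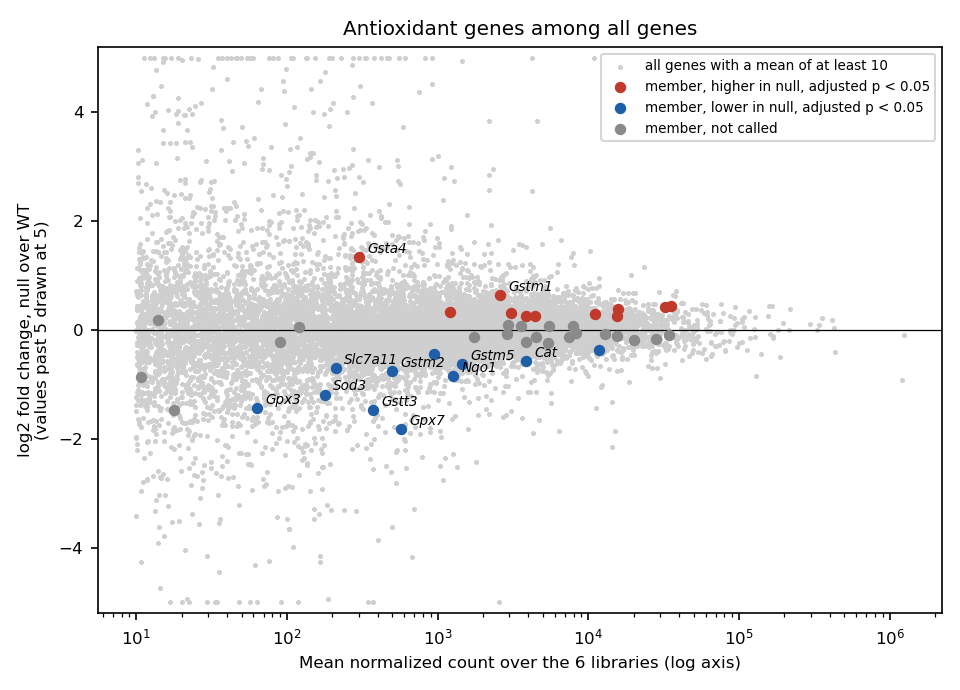
Log2FC (y axis, values past 5 drawn at 5) against the mean normalized count over the 6 libraries (x axis, log scale) for the 14246 genes with a mean of at least 10 (small grey points) and the 43 members (large points, coloured by call). The 11 members past 0.5 are named, and the 11 members with a mean of at least 10000 stay between −0.37 and 0.45.

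Whole chromosomes differed in their median log2FC, which bears on the small changes. The median over genes with a mean of at least 10 was 0.34 on chromosome 19, 0.32 on chromosome 17, 0.21 on chromosome 16 and 0.19 on chromosome 10. Prdx5 (chromosome 19), Sod2 (chromosome 17), Sod1 and Cbr1 (chromosome 16) and Gpx4 and Txnrd1 (chromosome 10) lie there. Other chromosomes had medians below 0, the lowest being −0.35 on chromosome 14, −0.22 on chromosome 9 and −0.16 on chromosome 11. With the median of its chromosome taken out and the Wald test recomputed, 5 of the 11 rises lost their call: Gpx4 (0.26, adjusted p = 0.129), Prdx5 (0.05, 0.812), Sod1 (0.05, 0.782), Cbr1 (0.14, 0.39) and Sod2, which turned to −0.06 (0.703). Txnrd1 (0.23, 0.00739), Gclm, Srxn1, Taldo1, Gsta4 and Gstm1 kept theirs. All 11 falls kept their call, and Gstp3 (−1.80, adjusted p = 0.0176) and Prdx3 (−0.27, adjusted p = 0.00224) joined them. Prdx3 changed sign. So did Tkt (0.18), Keap1 (0.14), Gclc (0.09), Gpx1 (0.04), Prdx2 (0.03), Gstt1 (−0.13) and Gstp1 (−0.25), which stayed uncalled. Among the 43 members with a mean of at least 10, there were then 6 rises and 13 falls. Of the 14246 genes at that level, 14.1% were then called higher and 13.2% lower. A cause of the chromosome medians was not tested.

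**Figure D5:**
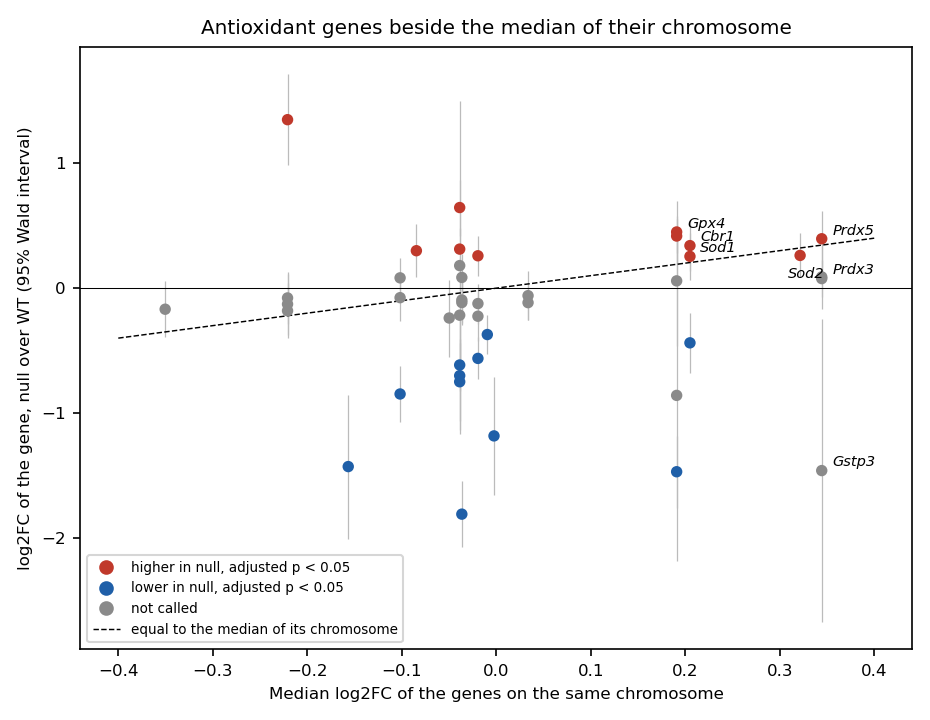
Log2FC of the 43 members (y axis, bars are 95% Wald intervals) against the median log2FC of the genes on the same chromosome (x axis), coloured by call. The dashed line marks equality. Gpx4, Cbr1, Sod1, Sod2 and Prdx5, which lost their call when the median was taken out, lie within 0.26 of the line, and Prdx3 and Gstp3, which gained one, lie below it.

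Beyond the members, 73 further genes of glutathione and NRF2 biology were listed, and 71 had an adjusted p-value. Of these 16 rose, 16 fell and 39 were not called, and their median log2FC was −0.01. With an absolute log2FC over 0.5, 6 were higher and 12 lower. Over all genes with an adjusted p-value the shares were 16.8% higher and 14.1% lower, and 8.67% and 8.2% past 0.5, and no test was made of the list. Among those with a mean of at least 50, the largest rises were Maff (log2FC 0.97, adjusted p = 5.07e-16), a small partner protein of NRF2, Fth1 (0.72, 2.43e-13), the heavy chain of the iron store ferritin, the omega class transferases Gsto1 (0.68, 3.72e-12) and Gsto2 (0.61, 0.028), and Msrb1 (0.56, 1.07e-07), a methionine sulfoxide reductase. Fth1, Gsto1 and Gsto2 lie on chromosome 19, Maff on chromosome 15 and Msrb1 on chromosome 17, where the median log2FC was 0.34, 0.32 and 0.32. With the median of each chromosome taken out, 11 genes of the list were called higher and 15 lower. Of all genes with a mean of at least 10, 14.1% were then called higher and 13.2% lower.

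At the same minimum of 50, the largest falls were Ggt7 (log2FC −1.28, adjusted p = 6.59e-06), of the gamma-glutamyl transferase family, Msrb2 (−1.26, 2.85e-07), the mitochondrial methionine sulfoxide reductase, Akr1b10 (−1.19, 7.99e-25), an aldo-keto reductase, Ptgr1 (−0.84, 2.83e-18), prostaglandin reductase, and Hmox1 (−0.79, 1.78e-18), heme oxygenase. Hmox1 fell from 12214 to 7057 normalized counts.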

How the data were processed

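RNA was sequenced from 3 WT and 3 Anp32e-/- MEF libraries (TruSeq Stranded Total RNA). Per the methods, RNA-STAR alignment to mm10 was followed by featureCounts of Subread, and the authors compared the groups in DESeq2 at its defaults. The only file used here is their deposited comparison table of 42361 transcripts. Its signal column is the mean of the authors' normalized counts over 6 libraries. The deposited log2 fold changes and standard errors, the deposited score (the Wald statistic), and the deposited p-values, adjusted by the authors, are their own results and were read as such, since the table holds no counts per library. Depth per library is therefore unknown. This replaces a planned count model, and no sample was left out.

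Transcripts were matched to RefSeq genes of GRCm38.p6 (42203 of 42361), and the transcript with the highest mean stood for each gene. Computed here were group means (floor 3 normalized counts), 95% Wald intervals, background shares, chromosome medians, Benjamini-Hochberg readjustments and shared 75-base stretches of GENCODE vM21 transcripts, with Python 3.11.15, numpy 2.4.6, pandas 2.3.3 and scipy 1.17.1. The computations were tested on simulated data. Members called past 0.5 are given with SE, other called members with log2FC and adjusted p, uncalled ones with level and log2FC, members with a mean under 10 by their mean, and of the wider list the 5 largest changes in each direction with a mean of at least 50. Members and lists were chosen with earlier results of these data known.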

Additional observations from a re-analysis of the deposited data

How the results depend on the processing

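No paired analysis was possible because the table holds no values per library. For the same reason leaving out single libraries and another count model were not run, and neither a replicate spread nor the depth behind a value can be given. With the median of each chromosome taken out, members called higher went from 11 to 6, and Sod2 turned from a log2FC of 0.26 to −0.0596. The rises of Gpx4, Prdx5, Sod1 and Cbr1 lost their call as well. At an absolute log2FC over 1.5, 0 members were higher and 1 lower (Gpx7), a stricter threshold by construction. A Wald test with 0.5 as the null hypothesis left 1 higher (Gsta4) and 4 lower (Gpx7, Gstt3, Gpx3 and Nqo1). Of the wider list, 10 genes were higher at an adjusted p under 0.01, where 16 were at 0.05. At an adjusted p under 0.05, the counts of members and of the wider list stayed within 1.5 times their values under adjustment over all transcripts or over genes, another transcript, autosomes alone and means of at least 10 or 50, and the members' counts also with suffixed symbols left out. For the members, several of these settings could change little. All 22 calls had a mean of at least 50, and the X-linked Prdx4 and G6pdx were not called. Nor were Gpx2-ps1 and Prdx6b, the suffixed symbols. Beside a log2FC over 1.5 and the Wald test of 0.5, the members' counts past 0.5 were recomputed under 3 settings. With another transcript, autosomes alone and the chromosome medians they stayed within 1.5 times. The log2FC of the 43 members with a mean of at least 10 kept sign under both readjustments, which leave it unchanged, and kept its call. Sign and call were also kept under another transcript, a setting that could change little. Only 19 of all members had more than 1 transcript, and the others kept their only value. Between transcripts of a member with a mean of at least 10, the log2FC differed by at most 0.05.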

Other observations

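Akr1c13, an aldo-keto reductase of the wider list, had the lowest log2FC there (−2.60, SE 0.521, adjusted p = 5.80e-06), with group means of 46.8 for WT and 7.70 for Anp32e-/- MEFs. Its mean of 27.2 lay under the minimum of 50 set for naming, and it was picked out after its value had been seen. So was Ggt1, a gamma-glutamyl transferase with the highest fitted log2FC of the list (3.07, SE 0.807, adjusted p = 0.000853) and a mean of 13.5, whose WT mean of 2.87 lay under the floor of 3 normalized counts and whose Anp32e-/- mean was 24.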
